A study of Gallus gallus with 16 samples.

Results

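The hypothalamus and the ovary, the upper and the lower end of the axis that governs laying, were compared as tissues in female Luhua chickens, a Chinese local breed, at 300 days of age. The comparison rests on 7 of the 16 libraries of the series, 2 of hypothalamus and 5 of ovary, with hens of high (HEP) and low (LEP) egg production pooled in each tissue. HEP and LEP hens came from the top and the bottom of a flock ranked by eggs laid up to that age. The hypothalamus is represented by HEP hen 3 and LEP hen 4, and the ovary by HEP hens 1 and 3 and LEP hens 4, 5 and 6. The birds carried no allele or treatment named in the labels, and they had feed and water without restriction. Hens 3 and 4 therefore contribute both tissues. These 2 hypothalamus libraries are those with more than 13000 genes listed above 0 FPKM (fragments per kilobase of transcript, divided by library size). The other 3 hypothalamus libraries, from HEP hen 1 and LEP hens 5 and 6, listed fewer genes and are used only to look at abundant genes. Of hen 2, the 16 libraries of the series hold a pituitary only.

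As background, neurons of the hypothalamus release peptides, gonadotropin-releasing hormone among them, that drive the pituitary to secrete gonadotropins. These act on the ovary, where the cells of the follicle wall make steroids that feed back on the brain and where oocytes take up yolk. The hypothalamus is a neural tissue of neurons, glia and ependyma, whereas the ovary of a laying hen holds follicles at many stages, stroma, smooth muscle, vessels and germ cells. The labels give the tissue as a whole, so a difference between the tissues can come from different cells or from different RNA per cell, and these cannot be told apart in such samples.

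Each gene is given by its Ensembl identifier. The files do not pair identifiers with symbols, and 0 of 17108 identifiers were matched in the RefSeq gene table (assembly GRCg7b), so marker genes of neurons, glia, follicle cells or oocytes could not be read. The tissue labels were for that reason not checked against markers, and genes are described below by level, by tissue and by number. Where the words "higher" and "lower" are used of a group of genes, the hypothalamus is set against the ovary.

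The 7 libraries listed 13737 to 14356 of the 17108 genes above 0 FPKM, and 12551 genes had a mean of at least 1 FPKM over them and were tested. Reads per library are not known from FPKM values. Across the genes tested, the hypothalamus libraries correlated with each other on the log2(FPKM + 1) scale with r = 0.941, and ovary libraries with r between 0.922 and 0.958 over 10 pairs. Between a hypothalamus and an ovary r was 0.591 to 0.633, again over 10 pairs. The libraries thus grouped by their labelled tissue. Between libraries of a tissue, the median absolute log2 difference of a gene was 0.425 in the hypothalamus pair and 0.173 to 0.329 in the ovary pairs, and between the tissues it was 0.807 to 1.09.

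The hypothalamus and the ovary differed in a large part of their genes. With FPKM as deposited, 1612 genes were higher in the hypothalamus (12.8% of those tested) and 4037 were lower (32.2%), at an adjusted p under 0.05 in limma and a log2 difference of at least 1. This excess of lower genes depended on which scale was used. With each library rescaled to the same sum over the genes tested, the excess stayed, at 1238 higher and 3487 lower genes. On the deposited scale the median of all genes tested stood at a log2 difference of -0.50, and with median-ratio scaling, which lines up the genes listed above 0 in all 7 libraries, it stood at -0.03. After that scaling 2467 genes were higher (19.7%) and 2614 lower (20.8%), so that higher genes made up 48.6% of the genes that changed instead of 28.5%. Median-ratio scaling brings the median difference near 0 by construction, so near-equal counts were largely fixed in advance. These counts, and the later ones after that scaling, cannot show whether the excess of lower genes is real. FPKM as deposited and median-ratio scaling, called both scalings below, gave the same direction to 1592 higher and 2614 lower genes. These were 12.7% and 20.8% of those tested. A further 20 higher and 1423 lower genes passed on the deposited scale only, and 875 higher and 0 lower genes after median-ratio scaling only. No gene passed in opposite directions under the 2 scalings. The p values treat both tissues of a hen as independent and use 1 estimate of spread per gene for both tissues.

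**Figure D1:**
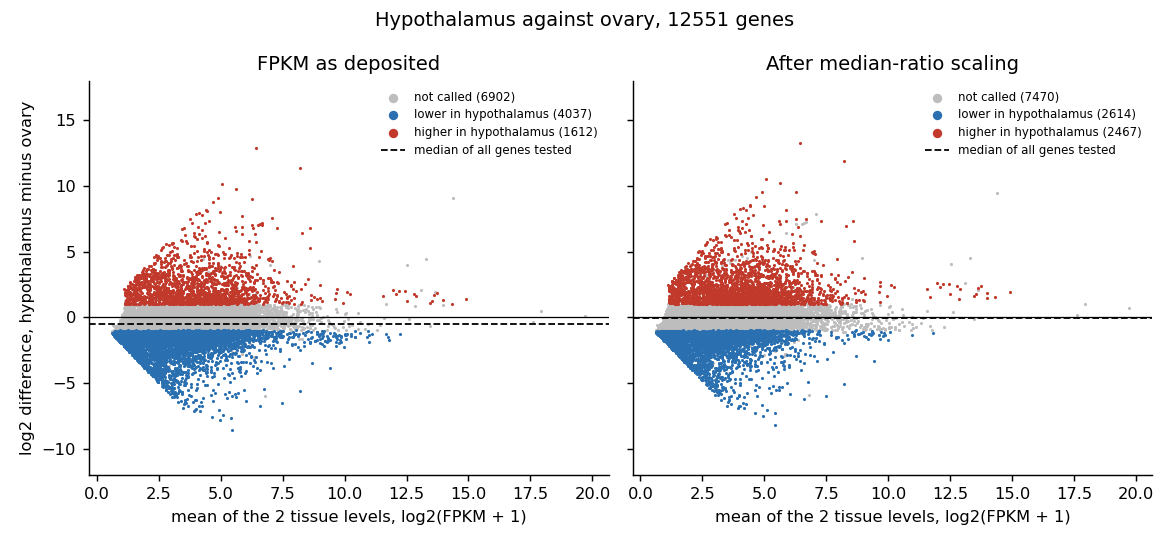
Log2 difference of hypothalamus minus ovary (vertical axis) for 12551 genes, 1 point each. The difference is from FPKM as deposited on the left and after median-ratio scaling on the right. The horizontal axis is the mean of both tissue levels on the log2(FPKM + 1) scale, from FPKM as deposited in both panels. Red genes were higher and blue genes lower in the hypothalamus in limma, and the dashed line is the median of all genes, at -0.50 on the left and -0.03 on the right.

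The changes were of moderate size for most of these genes. On the deposited scale the median size of the log2 difference was 1.94 among the 1612 higher and 1.69 among the 4037 lower genes. A log2 difference of at least 2 was reached by 766 higher and 1531 lower genes, and one of at least 5 by 78 higher and 105 lower genes. After median-ratio scaling 1078 genes in each direction reached 2, and 113 higher and 88 lower genes reached 5. At the other end, 2158 genes (17.2%) had a 95% interval of the log2 difference that lay within 1 of 0 under both scalings, so a change of 2-fold or more on this scale was outside the interval for them.

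Among abundant genes the balance moved towards the hypothalamus. Genes with a level under 10 FPKM, taken as the mean of both tissue means, were higher in 11.0% and lower in 34.5% of 4527 cases. The filter averaged over libraries that were mostly ovary, so it kept weak genes more readily when they were high in the ovary. This can raise the lower share of this class under either scaling. The shares were not recomputed with a filter that weights both tissues equally. Between 10 and 100 FPKM, a level at which the filter removes no gene, 12.8% of 7206 genes were higher and 31.0% lower. Between 100 and 1000 FPKM, 22.4% of 723 genes were higher and 29.2% lower. At 1000 FPKM and above, 31 of 95 genes (32.6%) were higher and 29 (30.5%) lower. After median-ratio scaling the same 4527 weakly expressed genes were higher in 16.7% and lower in 25.7%, and the 95 most abundant genes were higher in 29.5% and lower in 10.5%. These are descriptions of gene classes, and genes are not independent replicates.

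The genes that passed under both scalings also took different shares of the summed FPKM. The 1592 higher genes made up 18.3% and 20.0% of the sum in the hypothalamus of LEP hen 4 and HEP hen 3, and 3.88% to 8.82% in the 5 ovaries. Because these libraries chose the genes, that contrast is a description only. In the 3 hypothalamus libraries with fewer genes, which had no part in the choice, the 1592 genes made up 17.4% to 19.0%. The 2614 lower genes made up 4.60% to 10.8% in the ovaries, 1.20% and 1.33% in the 2 hypothalamus libraries of the comparison, and 1.48% to 2.82% in the other 3. For the higher genes the libraries with fewer genes lay above all 5 ovaries. The ovaries, however, took part in choosing these genes as low in the ovary, so their side of this contrast was partly fixed in advance. Whether listing mainly abundant genes changed the share was not tested for the libraries with fewer genes. For the lower genes their low share says little, since weak genes are often listed at 0 in these libraries. All these shares depend on the 3 most abundant genes of a library, none of which was among the genes that passed under both scalings and which held 47.3% to 75.1% of the sum in the 5 ovaries and 53.6% and 62.1% in the 2 hypothalami. Without these 3 genes, a setting chosen after seeing the data, the higher genes made up 43.1% and 48.2% in the 2 hypothalami, 39.8% to 53.8% in the 3 with fewer genes and 14.1% to 16.7% in the ovaries.

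The genes named here had the largest log2 differences among genes that passed, did not overlap between tissues, were above 0 in all 7 libraries and had a mean of at least 1 FPKM in the lower tissue. This last condition limits how far the pseudocount sets a fold change, but does not remove its part. With a pseudocount of 0.1 or 5 instead of 1, the lower gene ENSGALG00000027090 had a log2 difference of -9.39 or -7.08. Without these conditions the largest log2 difference among higher genes was 12.88. By this rule, which required the groups to be apart, the lack of overlap is no finding for these 4 genes.

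Under these conditions, ENSGALG00000000112 was the higher gene with the largest difference. It stood at 15392 FPKM in the hypothalamus of HEP hen 3 and at 12998 FPKM in that of LEP hen 4. In the ovary it stood at 8.15 and 3.62 FPKM in HEP hens 1 and 3 and at 8.08, 1.09 and 4.28 FPKM in LEP hens 4, 5 and 6. Both hypothalami were thus more than 1000 times above every ovary, and the ratio of the means was 2813. The log2 difference was 11.38 (SE 0.50, limma adjusted p = 2.23e-07). In the hypothalamus libraries with fewer genes its level was also high, at 15979 FPKM in HEP hen 1 and at 11639 and 51780 FPKM in LEP hens 5 and 6. The pituitaries, at 0.18 to 10.2 FPKM, lay with the ovaries.

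ENSGALG00000006995 came next under the same conditions, at 1922 FPKM in the hypothalamus of HEP hen 3 and 1602 FPKM in that of LEP hen 4. The ovaries held 2.48 and 1.73 FPKM in HEP hens 1 and 3 and 1.67, 3.78 and 2.54 FPKM in LEP hens 4, 5 and 6. The ovaries stayed within a narrow band, and the ratio of the means was 723. Its log2 difference was 9.03 (SE 0.25, limma adjusted p = 2.93e-08). Of the libraries with fewer genes, HEP hen 1 and LEP hen 5 held 1150 and 518 FPKM, and LEP hen 6 held 20673 FPKM. That value lies more than 10 times above the other 4 hypothalami, whereas the pituitaries held 5.08 to 9.83 FPKM.

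ENSGALG00000027090 was, again under these conditions, the lower gene with the largest difference. In the ovary it stood at 669 and 1016 FPKM in HEP hens 1 and 3 and at 690, 608 and 1373 FPKM in LEP hens 4, 5 and 6. In the hypothalamus it stood at 0.88 FPKM in HEP hen 3 and at 1.45 FPKM in LEP hen 4. The ratio of the means was 747, and LEP hen 6 was the highest ovary. The log2 difference was -8.59 (SE 0.32, limma adjusted p = 1.12e-07). All other libraries were low, with at most 3.20 FPKM in the hypothalami with fewer genes and 0.25 FPKM in the pituitaries.

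ENSGALG00000022586 was the next lower gene by the rule. The ovaries held 494 and 397 FPKM in HEP hens 1 and 3 and 690, 858 and 704 FPKM in LEP hens 4, 5 and 6. The 2 HEP ovaries were below the 3 LEP ovaries, a difference that was not tested here. In the hypothalamus the gene stood at 2.52 FPKM in HEP hen 3 and 1.45 FPKM in LEP hen 4, and the ratio of the means was 317. The log2 difference was -7.69 (SE 0.30, limma adjusted p = 1.40e-07). Of the libraries with fewer genes, LEP hens 5 and 6 listed it at 0 and HEP hen 1 at 41.0 FPKM, which is above the other hypothalami and above the pituitaries (1.77 to 6.65 FPKM) but below every ovary.

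**Figure D2:**
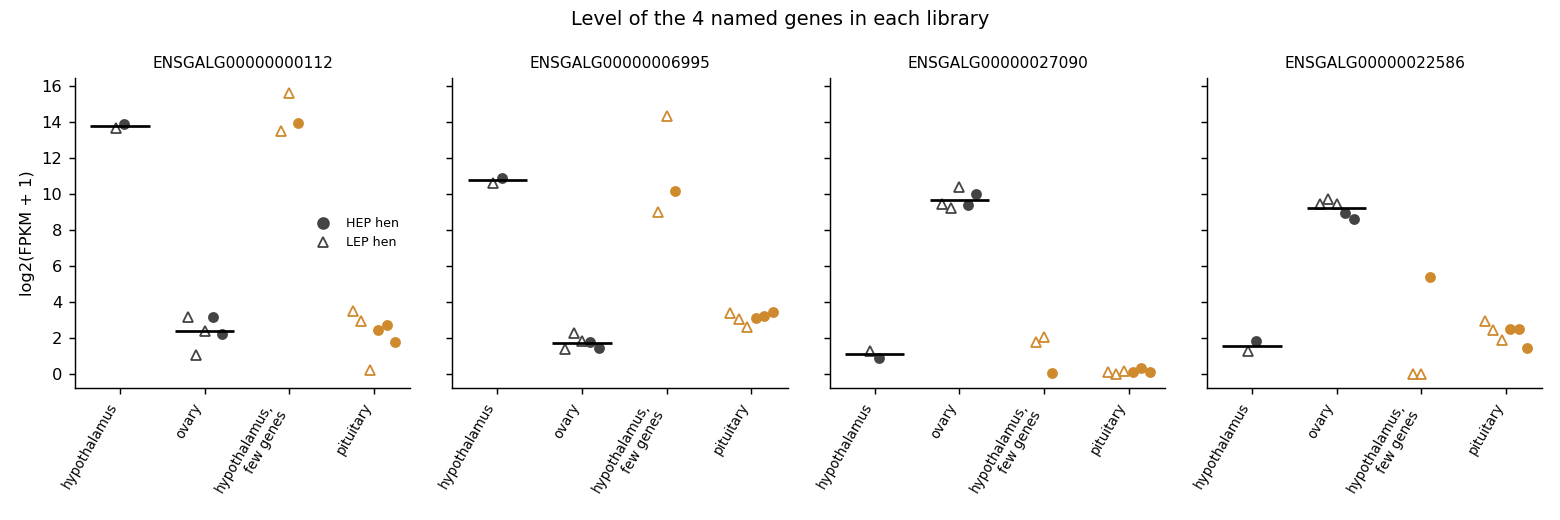
Level of the 4 named genes on the log2(FPKM + 1) scale (vertical axis) in each library, with filled circles for HEP hens, open triangles for LEP hens and a line at the mean of the 2 hypothalami and the 5 ovaries that were compared. Orange points are libraries outside the comparison, the 3 hypothalami with fewer genes and the 6 pituitaries.

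Some genes were found in one tissue and were near the lower limit in the other. At 1 FPKM or more in both hypothalamus libraries and at most 0.1 FPKM in each of the 5 ovaries stood 37 genes, of which 22 were listed at 0 in all 5 ovaries. In the opposite direction, 195 genes stood at 1 FPKM or more in all 5 ovaries and at most 0.1 FPKM in both hypothalami, 122 of them listed at 0 there. A listing at 0 may mark an estimate that failed, so no fold change is given. The comparison of 5 against 2 libraries is uneven, and with the ovaries of hens 3 and 4 alone the numbers were 63 for the hypothalamus and 247 for the ovary. On the deposited scale the ovary thus had more such genes under either count. As a base for these counts, 10955 genes stood at 1 FPKM or more in both hypothalami and 11509 in all 5 ovaries. In the ovaries of hens 3 and 4 alone, the base was 11898 genes. A mean of 10 FPKM or more in their tissue was reached by 16 of the 37 hypothalamus genes (43.2%) and 62 of the 195 ovary genes (31.8%), and 100 FPKM or more by 6 and 1. The share of all genes of a tissue at these levels was not computed, so these shares are not read as a trait of such genes. The median gene tested stood at 9.34 and 12.8 FPKM in the hypothalami of LEP hen 4 and HEP hen 3, and at 14.8 to 17.6 FPKM in the ovaries. The most abundant gene listed at 0 throughout the other tissue had a mean of 7591 FPKM in the hypothalamus and of 124 FPKM in the ovary. In the pituitary, a mean of at least 1 FPKM was reached by 9 of the 37 and by 34 of the 195. For comparison, 11634 to 11743 of all 17108 genes stood at 1 FPKM or more in a single pituitary library.

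The same tissue difference can be read within a hen in hens 3 and 4, which share no library. Across the 12551 genes, the difference of hypothalamus minus ovary in HEP hen 3 correlated with that in LEP hen 4 at Pearson r = 0.821 and Spearman rho = 0.858. In hen 3, 1997 genes were at least 1 log2 unit higher and 3524 at least 1 unit lower in the hypothalamus, against 1538 and 5007 in hen 4. Both hens gave a higher level to 1295 genes, 64.8% of those of hen 3 and 84.2% of those of hen 4. Both gave a lower level to 3127 genes, 88.7% of those of hen 3 and 62.5% of those of hen 4. Only 34 genes moved by at least 1 unit in opposite directions, and 19 of these were listed at 0 in at least 1 of the 4 libraries. Another 65 genes moved by at least 1 unit in one hen and were listed at 0 in both tissues of the other. Of the named genes, whose direction in both hens was fixed by the rule that chose them, ENSGALG00000000112 had log2 differences of 11.70 in hen 3 and 10.48 in hen 4, and ENSGALG00000022586 of -6.82 and -8.14.

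The hens also differed in where the whole distribution lay. Over all genes tested, the log2 difference had a median of -0.30 in hen 3 and -0.69 in hen 4. The hypothalamus of hen 4 was lower than that of hen 3 by a median of -0.396 log2 units, while their ovaries differed by -0.059. Hen 3 was HEP and hen 4 LEP, so the hen and the egg production group cannot be told apart in the hypothalamus. With the hypothalamus of hen 4 left out, 1858 genes were higher and 3167 lower, and with that of hen 3 left out 1254 were higher and 4774 lower, with the lone library assumed to vary like the ovaries. After median-ratio scaling these pairs of numbers were 2439 and 2460, and 2421 and 2548.

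**Figure D3:**
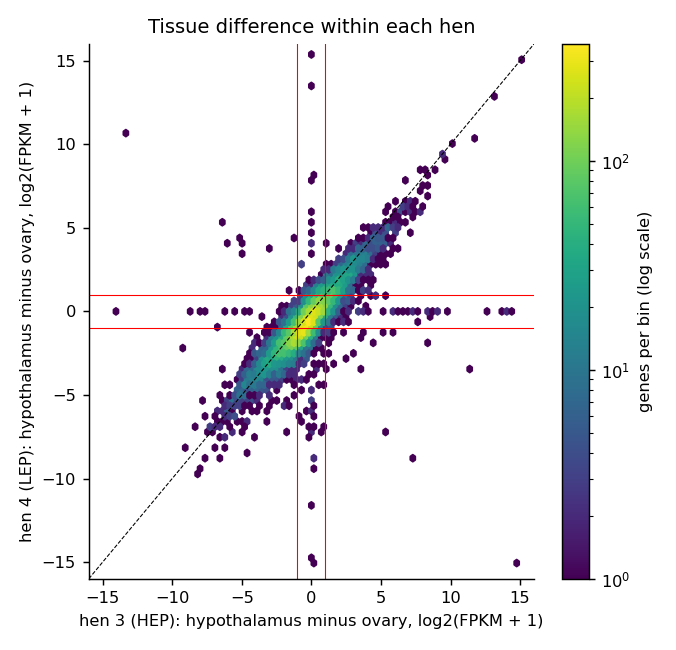
Difference of hypothalamus minus ovary on the log2(FPKM + 1) scale in HEP hen 3 (horizontal axis) and LEP hen 4 (vertical axis), as the number of genes per hexagon on a log colour scale, with red lines at 1 unit either side of 0 and a dashed line of equality. The differences in both hens correlated at r = 0.821, with a median of -0.30 in hen 3 and -0.69 in hen 4. Points on the lines through 0 include the 65 genes listed at 0 in both tissues of 1 hen.

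The pituitary had no part in choosing the genes, and its median level lay between those of the other tissues in each group of genes. The 1592 higher genes had a median level of 32.5 FPKM in the hypothalamus, 9.36 FPKM in the pituitary and 5.81 FPKM in the ovary. Gene by gene on the log2(FPKM + 1) scale, the pituitary mean was nearer to the ovary for 1128 of them (70.9%) and nearer to the hypothalamus for 464 (29.1%). The 2614 lower genes had medians of 2.02 FPKM in the hypothalamus, 5.68 FPKM in the pituitary and 20.6 FPKM in the ovary. For 1702 of them (65.1%) the pituitary mean was nearer to the hypothalamus, and for 912 (34.9%) nearer to the ovary. In each group the pituitary was thus more often near the tissue in which the genes were low. Choosing genes that are high in 1 of the tissues can by itself place another tissue this way. The share over all genes tested was not computed, so no conclusion is drawn about the pituitary. Many genes lay outside both tissues, however. Of the higher genes 817 (51.3%) had a pituitary mean between the other tissues, 589 below both and 179 above both, and of the lower genes 1732 (66.3%) lay between, 561 below both and 277 above both. With median-ratio scaling of the 13 libraries the shares nearer to the hypothalamus were 30.1% and 63.0%.

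**Figure D4:**
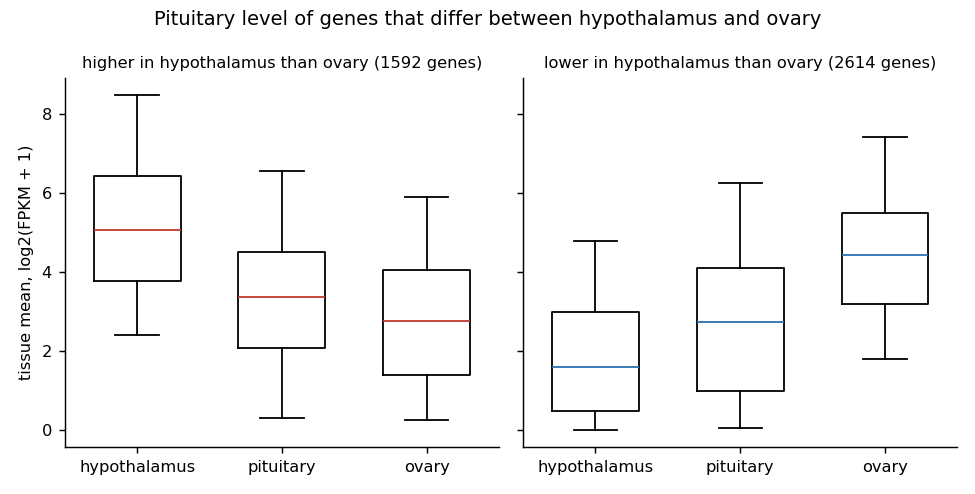
Tissue means on the log2(FPKM + 1) scale (vertical axis) of the 1592 genes higher (left) and the 2614 genes lower (right) in hypothalamus than ovary under both scalings. Boxes give the quartiles and the median, and whiskers the range that leaves out 5% of genes at each end, with the pituitary median between the other two in both groups.

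The 3 hypothalamus libraries with fewer genes listed 6186 to 6843 genes above 0, and in them abundant genes could be read but weak ones often could not. Of the 341 higher genes at 100 FPKM or more in the hypothalamus, 18, 20 and 18 were listed at 0 in LEP hens 5 and 6 and HEP hen 1. Their median was 150, 148 and 152 FPKM there, against 195 FPKM in the 2 libraries of the comparison and 26.2 FPKM in the ovaries. Between 74.8% and 89.7% of these genes lay within 4-fold of their level in the 2 libraries. For the 367 genes at this level that did not pass the test, 68.9% to 82.3% lay within 4-fold, a range that overlaps that of the higher genes. The 113 lower genes at 100 FPKM or more in the hypothalamus were listed at 0 in 7.96% to 10.6% of cases. Their median was 388, 437 and 346 FPKM in LEP hens 5 and 6 and HEP hen 1, above the 307 FPKM of the 2 libraries of the comparison and below the 817 FPKM of the ovaries. Of the 305 higher genes under 10 FPKM in the hypothalamus, 60.3% to 70.5% were listed at 0. Of the 66 lower genes with at least 100 FPKM in the ovary and under 10 FPKM in the hypothalamus, 71.2% to 77.3% were listed at 0, and 1 or 2 reached 100 FPKM in each library. As weak genes are mostly at 0 in these libraries, zeros of genes weak in the hypothalamus say little about the lower direction.

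**Figure D5:**
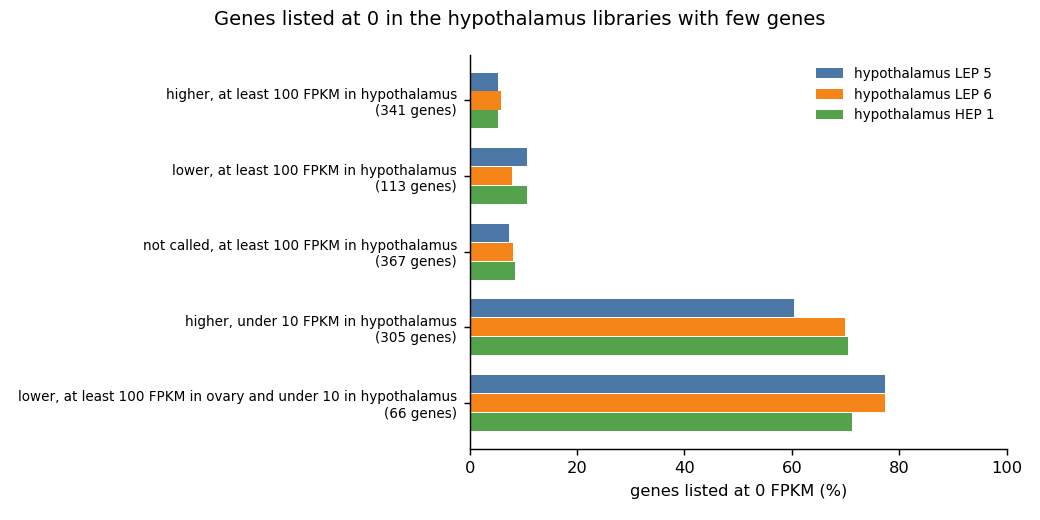
Share of genes listed at 0 FPKM (horizontal axis, %) in each of the 3 hypothalamus libraries with fewer genes, for 5 classes of genes set by the test result and by the level in the compared libraries. Abundant hypothalamus genes were listed at 0 in 5.28% to 10.6% of cases and weak ones in 60.3% to 77.3%.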

How the data were processed

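The authors deposited FPKM values (fragments per kilobase of transcript, divided by library size) for 17108 genes in 16 libraries. Per the labels' protocols, total RNA was extracted with a column kit (RNeasy Mini) and made into Illumina libraries. The aligner, quantifier, build and gene models were not given in the sources used here. Depth is unknown, so no counting interval is given. Values were taken as log2(FPKM + 1), on which changes of weak genes are understated.

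Hypothalamus was compared with ovary in limma 3.58.1 (R 4.3.3, empirical Bayes with trend), two-sided, with Benjamini-Hochberg adjustment over the 12551 genes with a mean of at least 1 FPKM over the 7 libraries. A gene passed at an adjusted p under 0.05 and an absolute log2 difference of at least 1. The fit was run on simulated data with few changed genes, equal spread in both tissues and independent libraries. A shift of all genes and hens shared by the tissues were not simulated, so that run does not cover them. Its outcome is not given here. Descriptions were computed in Python 3.11.15.

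Replicate numbers are hen numbers, from titles and sample codes, so hens 3 and 4 pair the tissues. Their deviations from the tissue means correlated between tissues with r = -0.0826 and -0.0521 across genes. With only 2 hypothalamus libraries, the hypothalamus deviations of these hens are equal and opposite. The 2 values are thus not independent and do not show that the pairing can be ignored. Labels do not say how tissue was pooled or dissected. Named genes were the 2 of largest difference per direction under the conditions in the text. Lists of genes by symbol (26 lists) could not be matched and were not used. The comparison, the libraries and the rules were chosen with earlier results of these data known.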

Additional observations from a re-analysis of the deposited data

How the results depend on the processing

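The 4 named genes kept their direction and passed under all 27 alternatives, with a limma adjusted p of at most 0.000236. They were chosen for large differences in these same libraries, so this outcome was nearly fixed in advance and is no independent support. Under no alternative did a gene called on the deposited scale pass in the opposite direction. Some settings of scaling, pseudocount, threshold and libraries moved the number of higher genes, of lower genes or of both by over 1.5 times. Quantile normalization gave 2326 higher and 2471 lower genes, median-ratio scaling 2467 and 2614, and a pseudocount of 5 gave 1202 and 2612. A minimum log2 difference of 2 gave 766 and 1531, and the fit of all 5 hypothalamus libraries 629 and 4032. Leaving out a library gave 1254 to 1858 higher and 3167 to 4774 lower genes. With hen as replicate block, a fixed effect, the numbers were 1674 and 4083, and no call of a named gene changed. In that fit only the hens with both tissues inform the tissue difference. The spread of a gene was set mostly by other genes, with prior degrees of freedom of 116 against 4.46 in the main fit. The fixed block is thus a weak check of the pairing. With hen as a random effect instead, the numbers were 1610 and 4050. The cause of the shift of all genes between tissues was not tested.

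Settings added after seeing the data were median-ratio scaling with the replicate block (2484 and 2678), median-ratio scaling without a hypothalamus library (2439 and 2460 without hen 4, 2421 and 2548 without hen 3), and a filter that gives both tissues the same weight (1663 and 3961). Which genes are weak in the hypothalamus is limited by the few libraries, and depth is unknown.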
